A study of Mus musculus with 6 samples.

Results

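The genes described are those of the 4 Hox clusters (a, b, c and d), measured in Pax7-nGFP+ limb cells of the mouse embryo at E12.5 and E17.5. Of 38 listed Hox genes, 32 had at least 1 probe set carrying their symbol alone on the array, out of 18182 genes in all, and the brightest such probe set, by its mean signal, stood for each gene. Hoxa6, Hoxb8, Hoxc11, Hoxc12, Hoxd4 and Hoxd9 had no probe set of their own, and the 3 probe sets annotated to a pair of neighbouring Hox genes (Hoxd4 with Hoxd3, Hoxb8 with Hoxb7) lay between 1.96 and 2.25 on every array. Both ages carry the Tg:Pax7-nGFP transgene, in which Pax7 drives a nuclear green fluorescent protein, on a C57BL/6:DBA2 background. Cells were sorted for GFP after trypsin digestion of dissected limbs, and each age has 3 arrays labelled as biological replicates A, B and C, with no treatment and no wild-type or GFP-negative sample. The labels do not separate forelimb from hindlimb. Values are log2 signals made with GCRMA, on which a difference of 1 is a 2-fold change. Signals under 4 lie in the dense low range that GCRMA gives to probe sets without specific signal and are called background below.

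Hox genes encode homeodomain transcription factors that give cells their position along the body axis and along the limb. They lie in clusters, are numbered in groups of paralogues from the anterior, early-acting end to the posterior, late-acting end, and tend to be expressed in that order. In the limb bud the posterior genes of the a and d clusters pattern the skeleton from shoulder to digit. The posterior c genes are known from the hindlimb, and the b cluster acts mainly in the trunk and hindbrain. Muscle progenitors that migrate from the somites into the limb also express some a-cluster genes, among them Hoxa11 and Hoxa13.

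The sorted cells had the signals of muscle progenitors at both ages. Pax7 lay between 11.19 and 11.75 at E12.5 and at 12.20 or above at E17.5, and the mean over 11 muscle progenitor markers was 9.94 to 10.27 and 9.94 to 10.25 (3 higher, 2 lower and 6 not called). The markers moved in both directions. Pax7, Myog (mean 11.20 and 13.06) and Chrna1 (8.38 and 10.91) were higher at E17.5. Pax3 (7.94 and 5.38) and Meox2 (9.06 and 5.77) were lower. The mean over 14 markers of limb mesenchyme was also well above background. It was 7.70 to 9.62 at E12.5, highest in replicate B, and 6.60 to 7.57 at E17.5. Not every marker was so at E17.5. Col1a2 and Col3a1 had the highest E17.5 means of the 14 (13.41 and 13.97), while Twist1, Twist2 and Osr1 averaged 3.83, 3.55 and 2.88. E17.5 replicates A and B were much closer to each other than other arrays of one age (SD of their difference over genes averaging 6 or more was 0.152, against 0.412 to 0.551 in other pairs). The Hox genes differed by at most 0.40 between them. They may not be independent samples, so each Hox call is also given from a fit on the mean of both as a single sample, called the averaged fit. Values of other genes are from the fit on all 6 arrays unless the averaged fit is named. With 3 arrays per age, p-values measure the spread between these arrays only, and in sorted bulk RNA fewer cells of a type and less RNA per cell cannot be told apart.

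At E17.5 the clusters differed in what the arrays showed. In the d cluster Hoxd13 and Hoxd10 fell by several log2 units, in the a cluster Hoxa5 and Hoxa2 fell by about 1, in the c cluster no gene was called, and in the b cluster nearly every gene was in the background range at both ages. In all, 4 of the 32 measured Hox genes were lower at E17.5 at an adjusted p under 0.05 in limma, against 8.73% of all genes, and none was higher, against 8.21% of all genes. The share called lower is close to that of all genes, so the count alone says little about the clusters. At an unadjusted p under 0.05, 6 Hox genes were lower and 0 higher, against 15.5% and 12.9% of all genes. Of the 32, 9 (28.1%) had all 3 E17.5 arrays below all 3 E12.5 arrays, against 17.2% of all genes, and none lay the other way, against 14.2%. The median difference over the 32 genes was -0.08, and over the 16 with a mean signal of at least 4 it was -0.57, against 0.0033 and -0.09 over all genes. Of the 16, Hoxd10 reaches that mean only through E12.5 and Hoxc6 only through E17.5 replicate C, so values over these 16 are descriptions. The averaged fit called 2 Hox genes lower, Hoxd13 and Hoxa5, against 4.54% of all genes, and none higher, against 5.62%. Leaving out either of E17.5 replicates A and B also gave 2.

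**Figure D1:**
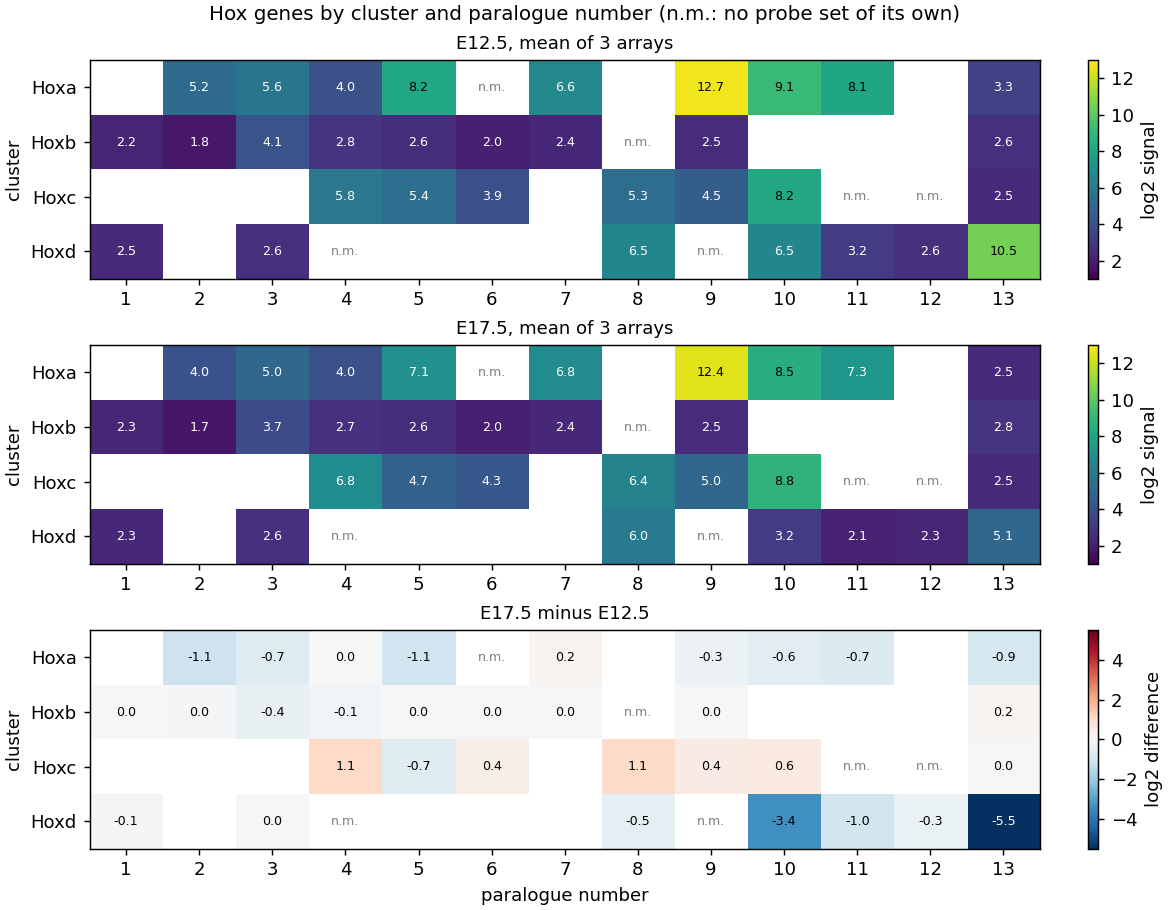
Mean log2 signal at E12.5 and at E17.5 (3 arrays each) and their difference, with the clusters in rows and the paralogue numbers in columns; n.m. marks listed genes without a probe set of their own, and blank cells hold no listed gene. The b row is dark at both ages, and the lowest values of the difference are Hoxd13 (-5.46) and Hoxd10 (-3.37).

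The promoters of the 4 genes that fell, and of Hoxa9, which kept a signal far above background on every array, are shown to compare the sequence at their start sites. They run from 250 bases before to 50 bases after the start in the RefSeq table for GRCm38.p6, which held 22 of the 38 listed genes, and lie at chr2:74667975-74668274 (plus strand) for Hoxd13, chr2:74691641-74691940 (plus strand) for Hoxd10, chr6:52204538-52204837 (minus strand) for Hoxa5, chr6:52164782-52165081 (minus strand) for Hoxa2 and chr6:52227321-52227620 (minus strand) for Hoxa9. Capitals mark matches, on either strand, to 3 motifs: TGATTNAT (Hox with its partner Pbx), TTTATNG (posterior Hox and Cdx proteins) and AGGTCA (a half-site of nuclear receptors such as the retinoic acid receptors).
Hoxd13: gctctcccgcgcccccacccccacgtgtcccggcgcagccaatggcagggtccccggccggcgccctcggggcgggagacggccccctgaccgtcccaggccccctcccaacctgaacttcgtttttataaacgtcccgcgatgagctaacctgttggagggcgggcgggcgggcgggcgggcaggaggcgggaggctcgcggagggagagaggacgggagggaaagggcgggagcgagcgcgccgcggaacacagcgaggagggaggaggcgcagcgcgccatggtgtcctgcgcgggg
Hoxd10: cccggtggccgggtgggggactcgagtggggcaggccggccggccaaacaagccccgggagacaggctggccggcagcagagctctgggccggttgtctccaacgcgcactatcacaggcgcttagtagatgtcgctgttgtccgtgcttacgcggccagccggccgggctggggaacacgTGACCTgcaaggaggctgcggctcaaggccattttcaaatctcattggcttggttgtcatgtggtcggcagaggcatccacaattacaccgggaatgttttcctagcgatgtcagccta
Hoxa5: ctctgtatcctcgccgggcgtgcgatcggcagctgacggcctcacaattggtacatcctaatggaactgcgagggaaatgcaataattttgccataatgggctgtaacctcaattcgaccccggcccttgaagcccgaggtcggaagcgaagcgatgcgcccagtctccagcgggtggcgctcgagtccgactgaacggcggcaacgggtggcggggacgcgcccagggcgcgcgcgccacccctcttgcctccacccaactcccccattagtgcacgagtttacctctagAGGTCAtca
Hoxa2: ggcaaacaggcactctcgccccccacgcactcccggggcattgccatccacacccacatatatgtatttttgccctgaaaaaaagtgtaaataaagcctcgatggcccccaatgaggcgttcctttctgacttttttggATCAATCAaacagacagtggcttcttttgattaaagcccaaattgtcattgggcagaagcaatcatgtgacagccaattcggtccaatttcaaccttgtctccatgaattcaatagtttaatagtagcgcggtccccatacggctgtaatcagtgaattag
Hoxa9: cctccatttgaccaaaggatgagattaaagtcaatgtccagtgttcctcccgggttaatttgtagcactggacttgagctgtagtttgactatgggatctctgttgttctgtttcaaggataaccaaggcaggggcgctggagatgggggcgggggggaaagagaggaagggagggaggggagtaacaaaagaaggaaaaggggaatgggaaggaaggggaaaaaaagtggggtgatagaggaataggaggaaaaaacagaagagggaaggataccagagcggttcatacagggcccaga

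The 4 promoters of fallen genes did not share a match. Hoxa2 held 1 match to TGATTNAT, which 3.22% of all 32851 promoters of this length hold, and Hoxd10 and Hoxa5 held 1 match each to AGGTCA, which 16.3% hold. None of the 5 held TTTATNG (10.9% of all promoters). The number of CG pairs in the 300 bases was 37 for Hoxd13, 29 for Hoxa5, 22 for Hoxd10, 9 for Hoxa2 and 4 for Hoxa9, against a median of 7 over all promoters. These are matches of letters and counts, and the arrays do not measure binding or methylation at them.

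Hoxd13, the last gene of the d cluster and a determinant of digits, showed the widest difference of all Hox genes. Its signal was 10.24, 11.67 and 9.63 in E12.5 replicates A, B and C and 5.54, 5.63 and 3.99 in E17.5 replicates A, B and C. The ages did not overlap, E12.5 replicate B was the highest array, and E17.5 replicate C alone was in the background range. The difference was -5.46 (SE 0.64, adjusted p = 0.00195 in limma, and adjusted p = 0.0061 in the averaged fit). A second probe set of Hoxd13 was above background only in E12.5 replicate B (5.02, against 2.12 to 2.24 on the other 5 arrays). With the mean of both probe sets the difference was -3.23 (adjusted p = 0.0188).

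Hoxd10, a gene of the limb skeleton and of lumbar motor neurons, fell with it. It stood at 6.18, 7.99 and 5.41 at E12.5 and at 2.95, 2.87 and 3.64 at E17.5. All 3 E17.5 arrays were in the background range, and E12.5 replicate B was again the highest. The difference was -3.37 (SE 0.65, adjusted p = 0.0143). It did not pass in the averaged fit (adjusted p = 0.0519), without E17.5 replicate A (adjusted p = 0.0502) or B (adjusted p = 0.0562), and with values under 4 raised to 4 (-2.53, adjusted p = 0.0861).

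The genes between and beside them gave little signal. Hoxd11 was at 5.14 in E12.5 replicate B and between 2.13 and 2.16 on the other 5 arrays, and Hoxd12 was at 3.29 in that array and between 2.27 and 2.33 on the others. These genes were not called (adjusted p = 0.513 and adjusted p = 0.481 in limma). At the anterior end Hoxd1 and Hoxd3 were in the background range on all arrays. Hoxd8, in the middle of the cluster, differed from its posterior neighbours. It was at 5.98, 7.95 and 5.66 at E12.5 and at 5.90, 5.53 and 6.61 at E17.5, so the ages overlapped (difference -0.52, SE 0.64, adjusted p = 0.755). Without E12.5 replicate B its difference was 0.19, and its second probe set gave -0.12.

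Hoxd8, Hoxd10 and Hoxd13 were each highest in E12.5 replicate B, as were 4 of the 7 a genes with a mean of at least 4. Of all genes with such a mean, 17.6% were highest in that array. The mean of the 3 d genes, which include Hoxd10 although it was background at E17.5, was 7.47, 9.20 and 6.90 at E12.5. At E17.5 it was 4.68 to 4.797. Markers of limb mesenchyme were also highest in that array, with means of 8.15, 9.62 and 7.70 at E12.5 and 7.57, 7.54 and 6.60 at E17.5. Of these 14 markers 7 were lower, 1 was higher and 6 were not called (averaged fit 4 and 0, 3 and 0 with values under 4 raised to 4, and without 1 array 3 to 6 lower and 0 to 4 higher, with 3 lower without E17.5 replicate B or C and 4 higher without E12.5 replicate B). Among them Twist1, a mesenchymal helix-loop-helix gene, was at 8.26, 9.35 and 7.99 at E12.5 and at 4.6, 4.24 and 2.64 at E17.5, and Pdgfra, a growth factor receptor gene of mesenchyme, was at 9.73, 11.42 and 8.87 and at 7.33, 6.98 and 4.68. The marker that rose was Col1a1, a fibrillar collagen gene (2.76, adjusted p = 0.0236, and adjusted p = 0.0773 in the averaged fit). Other matrix genes of the list had positive differences that were not called, with 0.69 for Col1a2, 1.36 for Col3a1 and 1.87 for Dcn. None of the 14 markers was in the background range on all 6 arrays, but Twist2 and Osr1 were in it on every E17.5 array. The part of mesenchymal RNA in the fall of Hoxd13 and Hoxd10 was not tested. Without E12.5 replicate B the differences were -4.88 for Hoxd13 (adjusted p = 0.00437) and -2.64 for Hoxd10 (adjusted p = 0.0066).

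**Figure D2:**
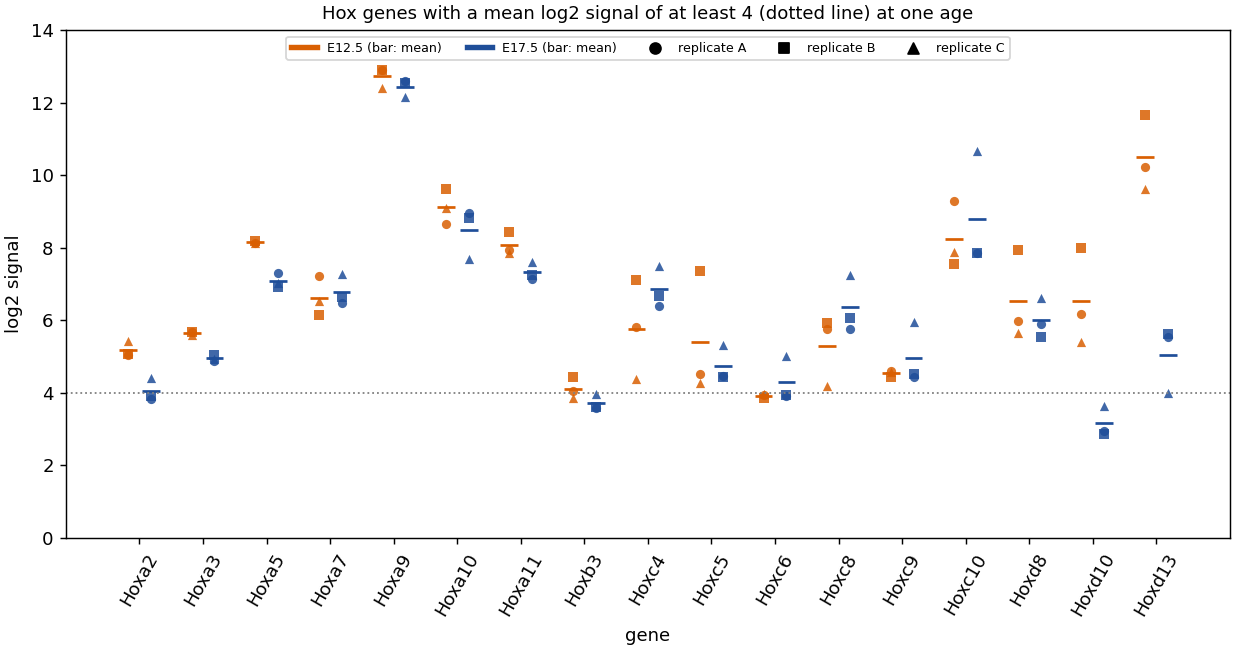
Log2 signal on each array (points, shaped by replicate letter) and mean of 3 arrays (bars) for the 17 Hox genes with a mean of at least 4 at one age. Only Hoxa2, Hoxa3, Hoxa5, Hoxa11, Hoxd10 and Hoxd13 have ages that do not overlap, each with E12.5 higher, and the c genes are highest in E17.5 replicate C except for Hoxc5.

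In the a cluster most genes were above background at both ages, and the differences were small beside those of Hoxd13 and Hoxd10. Of 9 measured genes 2 were lower, none was higher and 7 were not called, against 8.73% of all genes lower. Ages did not overlap for 5 of the 9, all lower at E17.5, against 17.2% of all genes. Among these 5 was Hoxa13, whose age means (3.34 and 2.48) were both in the background range. Counts over so few genes say little beside these shares. The mean over the 7 genes with a mean signal of at least 4 was at least 7.87 at E12.5 and at most 7.31 at E17.5. This mean was level over the arrays of each age. That of the d genes was level at E17.5 only (4.68 to 4.797, against 6.90 to 9.20 at E12.5). Single a genes varied more, with Hoxa7 at 6.14 to 7.21 at E12.5 and Hoxa10 at 7.70 to 8.97 at E17.5.

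Hoxa5, a middle gene of the cluster known from the thorax and lung, fell from 8.14, 8.19 and 8.14 at E12.5 to 7.31, 6.91 and 7.03 at E17.5. The groups did not overlap, and the 3 E12.5 arrays lay close together. The difference was -1.07 (SE 0.17, adjusted p = 0.00669, and adjusted p = 0.0235 in the averaged fit). Its second probe set, which can match several transcripts, gave another result. It was at 8.24, 6.77 and 7.01 at E12.5 and at 7.57, 7.42 and 7.20 at E17.5 (difference 0.06), and with the mean of both the call was lost (-0.51, adjusted p = 0.188).

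At the anterior end, Hoxa2, a hindbrain and neural crest gene, fell from 5.03, 5.07 and 5.44 to 3.82, 3.90 and 4.40. These are low signals, with 2 of the 3 E17.5 arrays in the background range. The difference was -1.14 (SE 0.24, adjusted p = 0.0207), and it did not pass in the averaged fit (adjusted p = 0.0964) or without E12.5 replicate C (adjusted p = 0.0632), E17.5 replicate A (adjusted p = 0.0984) or E17.5 replicate B (adjusted p = 0.101). Its neighbour Hoxa3 was at 5.67, 5.68 and 5.59 and at 4.87, 5.05 and 4.93, with no overlap between ages, but was not called (difference -0.70, SE 0.20, adjusted p = 0.0648, and adjusted p = 0.214 in the averaged fit). That probe set can match several transcripts, and without such probe sets the difference was -0.22 (adjusted p = 0.362). Averaging all of its probe sets gave -0.31 (adjusted p = 0.0414). It was called in 7 of 19 alternatives. Hoxa4 was near 4 on all arrays (3.88 to 4.06), and Hoxa7 overlapped between ages, at 7.21, 6.14 and 6.53 and at 6.47, 6.63 and 7.27 (difference 0.16, SE 0.36, adjusted p = 0.886).

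Of the posterior a genes, Hoxa9, which acts in the proximal limb and in blood progenitors, was at 12.91, 12.89 and 12.42 at E12.5 and at 12.59, 12.55 and 12.16 at E17.5. The ages overlapped and it was not called (difference -0.31, SE 0.18, adjusted p = 0.354). Hoxa10 was at 8.65, 9.62 and 9.09 and at 8.97, 8.82 and 7.70, and also overlapped (difference -0.62, SE 0.39, adjusted p = 0.401). Without E17.5 replicate C the difference was -0.23, and without E12.5 replicate B it was -0.37. A second, dimmer probe set of Hoxa10 did not overlap, at 5.51, 7.08 and 5.62 and at 4.06, 3.90 and 3.45, and was called lower where the most variable probe set stood for each gene (-2.27, adjusted p = 0.0247).

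Hoxa11, a gene of the forearm and of limb muscle progenitors, was at 7.93, 8.44 and 7.86 at E12.5 and at 7.13, 7.25 and 7.62 at E17.5. The ages did not overlap, yet the difference of -0.74 was not called (SE 0.23, adjusted p = 0.0748, and adjusted p = 0.229 in the averaged fit). It was called when only genes averaging 4 or more were tested (adjusted p = 0.0393). Its antisense transcript Hoxa11os was at 8.01, 9.27 and 8.27 and at 7.80, 7.48 and 7.98, also without overlap and not called (difference -0.76, SE 0.34, adjusted p = 0.206). In all, 3 of 16 listed non-coding transcripts of the clusters were measured and none was called, among them Hoxd3os1, at 5.22, 7.04 and 4 at E12.5 and 4, 3.90 and 4.77 at E17.5. Hoxa13, the paralogue of Hoxd13, was above 4 only in E12.5 replicate B (4.24), with 2.70 and 3.09 on the other E12.5 arrays and 2.34 to 2.56 at E17.5 (adjusted p = 0.177).

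**Figure D3:**
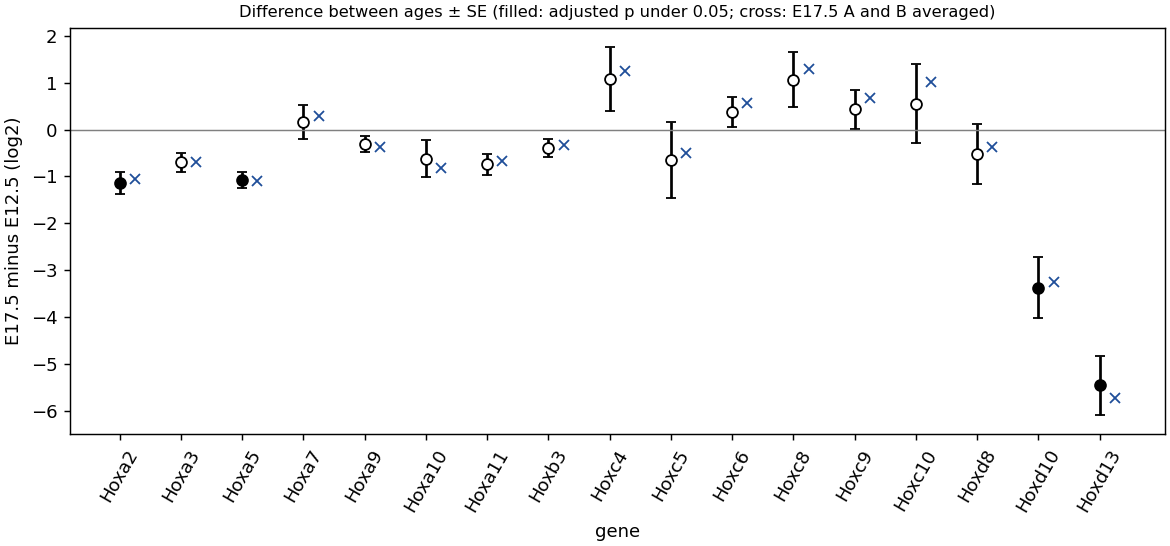
Difference between ages on the log2 scale (E17.5 minus E12.5, bars are the SE of limma) for the 17 Hox genes with a mean of at least 4 at one age; filled points have an adjusted p under 0.05 and crosses are the averaged fit. Hoxa2, Hoxa5, Hoxd10 and Hoxd13 are filled and lie below 0, and of the 6 c genes 5 lie above 0 with none filled.

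In the c cluster none of the 7 measured genes was called, and the arrays of one age differed more than the ages did. Hoxc10, a posterior gene known from the hindlimb, was at 9.29, 7.55 and 7.87 at E12.5 and at 7.85, 7.85 and 10.67 at E17.5. E17.5 replicate C was the highest of the 6 arrays and E12.5 replicate A the next. The difference was 0.55 (SE 0.84, adjusted p = 0.818), and without E17.5 replicate C it was -0.39.

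The more anterior c genes were also high in that array. Hoxc4 was at 5.81, 7.10 and 4.39 at E12.5 and at 6.39, 6.66 and 7.50 at E17.5 (difference 1.08, SE 0.69, adjusted p = 0.404). Hoxc8, a thoracic gene, was at 5.76, 5.93 and 4.18 and at 5.77, 6.05 and 7.24 (difference 1.06, SE 0.59, adjusted p = 0.324). Both overlapped between ages, with E12.5 replicate C the lowest. Without that array the differences were 0.40 and 0.51, without E17.5 replicate C they were 0.76 and 0.62, and without E12.5 replicate B that of Hoxc4 was 1.75. Hoxc6 and Hoxc9 stood out only in E17.5 replicate C, at 5.02 and 5.95. On the other 5 arrays Hoxc6 lay between 3.86 and 3.96 and Hoxc9 between 4.44 and 4.59. Hoxc5 was an exception, highest in E12.5 replicate B (7.35) and between 4.28 and 5.32 on the other arrays. Hoxc13 was in the background range on all arrays.

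Hoxc4, Hoxc6, Hoxc8, Hoxc9 and Hoxc10 were thus highest in E17.5 replicate C. That array was also the most frequent top array across the genome. It was highest for 23.6% of all genes averaging 4 or more, against 8.9% to 20.5% for each other array. The mean of the 5 named c genes and Hoxc5 was 5.65, 6.04 and 4.88 at E12.5 and 5.47, 5.58 and 6.95 at E17.5. The array that was high for the c genes was not high for the a genes (7.30) or for markers of limb mesenchyme, of which it held the lowest mean (6.60). Genes that mark the type of limb were read beside these values. Tbx4, the T-box gene of the hindlimb, was at 7.57, 8.34 and 6.91 at E12.5 and at 7.11, 7.32 and 7.29 at E17.5. Tbx5, the T-box gene of the forelimb, was in the background range on all arrays (2.07 to 2.55), while Pitx1, a regulator of hindlimb identity, was at 7.47, 8.17 and 6.54 and at 3.42, 3.47 and 3.45 (difference -3.95, adjusted p = 0.00129). The part of the limbs' make-up in the c values was not tested.

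**Figure D4:**
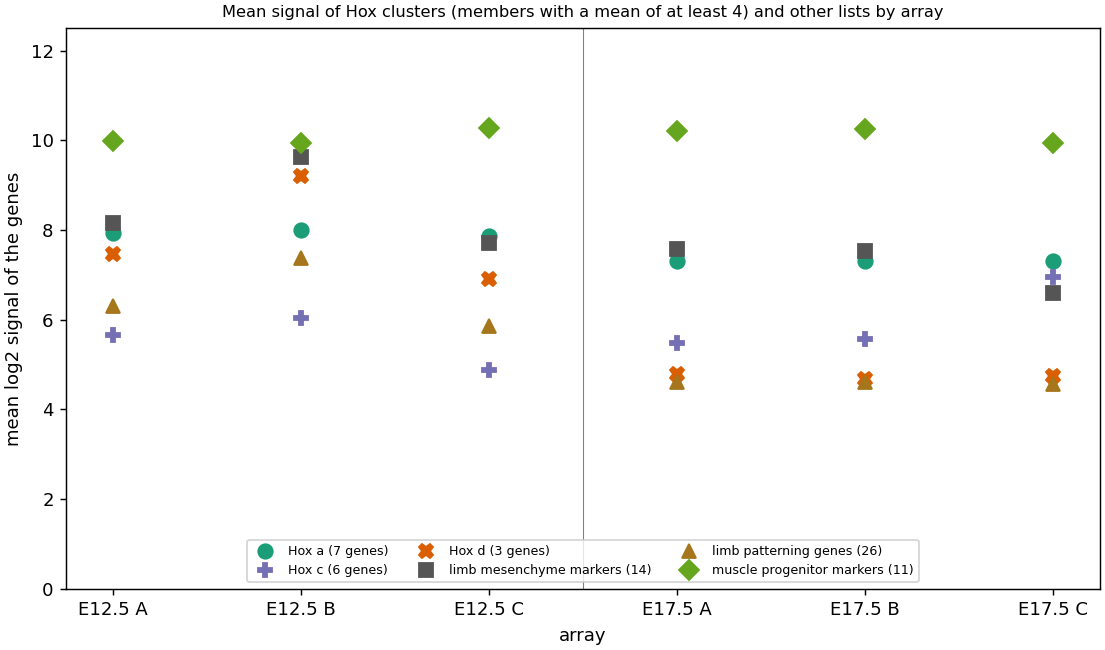
Mean log2 signal on each of the 6 arrays over the a, c and d genes with a mean of at least 4 (7, 6 and 3 genes) and over 3 lists of other genes. The d genes and the mesenchyme markers are highest in E12.5 replicate B (9.20 and 9.62), the c genes in E17.5 replicate C (6.95), and the a genes are level within each age.

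The b cluster gave almost no signal. Of its 9 measured genes 8 were under 4 on all arrays, with values from 1.71 to 3.15, and Hoxb3 alone reached 4.43, in E12.5 replicate B. Hoxb3 was at 4.06, 4.43 and 3.85 at E12.5 and at 3.58, 3.62 and 3.96 at E17.5 (difference -0.39, SE 0.20, adjusted p = 0.266). Differences between background values are not read here, although Hoxb2 and Hoxb4 had ages that did not overlap. A probe set in this range can be a gene without transcript or a probe set that does not detect it, and the arrays cannot tell these apart.

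Read by paralogue number, 2 of 19 genes numbered 1 to 8 were lower (Hoxa2 and Hoxa5) and 2 of 13 numbered 9 to 13 (Hoxd10 and Hoxd13), counts too small to read against the 8.73% of all genes. Within paralogue groups the differences are given side by side. In group 10 the differences were -0.62 for Hoxa10, 0.55 for Hoxc10 and -3.37 for Hoxd10, in group 9 they were -0.31 for Hoxa9 and 0.43 for Hoxc9, in group 5 they were -1.07 for Hoxa5 and -0.65 for Hoxc5, and in group 8 they were 1.06 for Hoxc8 and -0.52 for Hoxd8. Most of these were not called, and a single array set the sign of some, with -0.39 for Hoxc10 and -0.06 for Hoxc9 without E17.5 replicate C, and 0.19 for Hoxd8 and 0.33 for Hoxc5 without E12.5 replicate B. In group 13 Hoxd13 alone was above background at both ages on average.

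Hox proteins bind DNA with cofactors of the TALE class. Of 8 measured cofactor genes 1 rose, 2 fell and 5 were not called (averaged fit 1 and 1, without 1 array 1 and 1 to 2). Meis2, a gene of the proximal limb bud, was at 6.68, 8.07 and 4.37 at E12.5 and between 2.83 and 2.87 at E17.5 (difference -3.52, SE 0.85, adjusted p = 0.0337, and adjusted p = 0.0909 in the averaged fit). Pbx2 fell by 1.77 (SE 0.22, adjusted p = 0.00273) and Pknox1 rose by 0.92 (SE 0.12, adjusted p = 0.00337). Where the most variable probe set stood for each gene, 0 cofactor genes were called higher, so the call of Pknox1 was lost, and 1 was called lower. Meis1 differed by 0.70 and was not called (adjusted p = 0.234).

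Of 28 measured genes that regulate Hox chromatin or activate Hox genes, 1 rose, 10 fell and 17 were not called (averaged fit 0 and 7, without 1 array 0 to 2 and 6 to 10, with 6 falls without E17.5 replicate B). Aldh1a2, which makes retinoic acid, fell by 4.43 (SE 0.60, adjusted p = 0.00363), and Cyp26b1, which degrades it, fell by 3.91 (SE 0.59, adjusted p = 0.00566). The Polycomb gene Cbx2, a repressor of Hox genes, fell by 2.75 (SE 0.20, adjusted p = 0.000333). Ezh1, a Polycomb methyltransferase gene, rose by 0.77 (SE 0.20, adjusted p = 0.0411, and adjusted p = 0.174 in the averaged fit). The Cdx genes, early activators of Hox genes, were in the background range.

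Of 26 measured limb patterning genes 12 fell, 1 rose and 13 were not called (averaged fit 9 and 1, 6 and 0 with values under 4 raised to 4, without 1 array 8 to 13 and 0 to 2, with 8 falls without E17.5 replicate B). Hand2, a posterior limb bud gene that acts with the posterior d genes, fell by 5.62 (SE 0.52, adjusted p = 0.000723), Lhx9, a LIM homeobox gene of the distal bud, fell by 6.24, and Epha4, an ephrin receptor gene, fell by 5.73. Bmp4, a signalling gene, rose by 3.07 (SE 0.63, adjusted p = 0.0187). Shh, the signal that induces the posterior d genes in the bud, was near background on all arrays (3.05 to 4.03). The mean over these 26 genes was highest in E12.5 replicate B (7.37, against 6.31 and 5.85 in A and C).

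Genes that flank the clusters lie in the same chromosomal neighbourhood. Of 18 measured flanking genes 1 rose, none fell and 17 were not called, with the same counts in the averaged fit and without any 1 array. With the mean of all probe sets of a gene, none of the 18 was called. The gene that rose was Lnpk, which lies beyond the posterior end of the d cluster and shapes the endoplasmic reticulum, from 8.62, 8.40 and 8.16 to 9.65, 9.68 and 9.41 (difference 1.19, SE 0.16, adjusted p = 0.00359). On this probe set Lnpk thus differed in the direction opposite to Hoxd13, and its call was lost with the mean of its probe sets. Evx2, between Lnpk and Hoxd13, was in the background range (1.40 to 1.41), and Mtx2, beyond the anterior end, was at 10.02, 10.55 and 10.38 and at 10.38, 10.47 and 10.02.

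Other cell types in the sort were measured through their markers. Hbb-y, an embryonic globin gene, was high at E12.5, with 14.34, 14.89 and 13.02 against 4.46, 3.23 and 3.32. Of 7 red cell markers 3 were lower and none was higher, with a mean of 5.06 to 6.86 at E12.5 and 3.16 to 3.50 at E17.5 (averaged fit 1 lower, and 1 without any one of E12.5 replicate A and the 3 E17.5 arrays). These 3 were Hbb-y, Hbb-bh1 and Hba-x, of which the averaged fit called Hbb-y alone. The 4 others were not called, at 0.69 for Alas2, 0.33 for Epor, -0.87 for Slc4a1 and 0 for Hba-a1, which was background on all arrays. Of 10 surface ectoderm markers 3 were lower, with a mean of 4.40 to 5.34 and 3.47 to 3.61. Of 12 cartilage markers 2 were lower (1 without any one of the E12.5 arrays or E17.5 replicate A), with 5.79 to 6.95 and 4.72 to 6.04. Of 6 Schwann cell and neural crest markers 2 were lower, with 5.81 to 6.11 and 4.56 to 4.68. These 2 were Erbb3 (mean 12.68 at E12.5 and 9.87 at E17.5) and Ngfr (9.91 and 6.26). Sox10 and Foxd3, of the same list, were in the background range on all arrays. Endothelial and leukocyte markers had 1 and 2 higher of 8 each and none lower (averaged fit 1 and 1), with means between 3.38 and 4.32. The endothelial marker gene that rose was Tek, a receptor kinase gene (4.88, adjusted p = 0.000154). The 7 others were not called, at -1.37 for Kdr, -0.75 for Emcn, -0.35 for Cdh5, -0.32 for Tie1, -0.19 for Eng, -0.0033 for Pecam1 and 0.02 for Flt1. The median difference was -0.255 over the endothelial and 0.1 over the leukocyte markers. The leukocyte marker genes that rose were Cd68, a lysosomal gene of macrophages (2.99, adjusted p = 0.00281), and Lyz2, a lysozyme gene (1.06, adjusted p = 0.0409). Lyz2 did not pass in the averaged fit (adjusted p = 0.108). Pecam1 and Ptprc, other markers of these 2 lists, were in the background range on all arrays. The red cell, ectoderm and cartilage means were highest in E12.5 replicate B, the array that was highest for Hoxd8, Hoxd10 and Hoxd13, and their part in those values was not tested.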

How the data were processed

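Affymetrix arrays, 1 per sample and 3 per age, measured RNA from the sorted cells. Per the labels' protocols, 100 ng of total RNA was amplified from the 3' end in repeated cycles, so a signal also reflects where in the transcript a probe lies. The authors deposited one log2 value per probe set and array. The submitters' processing notes name GCRMA, whose version is not given in the sources used here. It estimates background from the bases of each probe and makes the arrays comparable, which compresses differences between low signals. Array medians were 3.38 to 3.47.

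Of 44994 probe sets 34909 had 1 symbol in the platform annotation, 931 had several symbols and stayed out of the tests, and 9154 were unnamed. The 32 Hox genes had 47 probe sets, and 11 genes had more than 1. Genes were tested over all 18182 with limma 3.58.1 in R 4.3.3 (intensity trend, no filter), with Benjamini-Hochberg adjustment. Precision is limited by the small number of arrays. The members and lists were chosen with earlier results of these data known. All members are named. Of the lists of cofactors, regulators, limb patterning genes, flanking genes and non-coding transcripts, up to 3 called genes per direction with a mean of at least 6 at one age are named, and those that bear on how a Hox value is read. The named cell type markers, Meis1, Evx2, Mtx2, Shh and the Cdx genes were chosen for the text with their values known.

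The replicate letters did not pair the arrays (correlations of deviations -0.38 for A, 0.25 for B and -0.07 for C). Tested on simulated data for E17.5 against E12.5 (18182 genes, 200 changed, 20 runs), the fit called 58.2% of 2-fold and 92.7% of 8-fold changes. Of its calls 4.4% were false. The simulated arrays were independent, whereas E17.5 A and B may not be, and 3080 genes were called in the real data. These rates may therefore not hold for the real arrays. Alternatives covered variance priors, array weights, probe set choice, filters and a floor on low signals, normalization, a replicate block, a threshold of 0.01, the mean of E17.5 A and B as 1 sample, and each array left out.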

Additional observations from a re-analysis of the deposited data

How the results depend on the processing

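Hoxd13 was called lower under all 20 alternatives (-5.90 to -3.23), Hoxa5 under 19 of 20, and Hoxa2 and Hoxd10 under 14 of 19 each. The number of Hox genes called lower was 2 at a threshold of 0.01 and 2 with E17.5 A and B averaged, 2 to 4 without 1 array, and 8 with array weights, which also called 2 higher (Hoxc4 and Hoxc8). Over all genes, array weights called 3204 higher and 5220 lower, the threshold of 0.01 called 841 and 701, averaging called 825 lower, and leaving out 1 array gave 970 to 1553 higher and 771 to 1776 lower. The replicate block called 1014 genes lower and changed no Hox call. The median Hox difference was -0.57 and -0.52 for those averaging at least 4 and at least 6, 0 with the floor at 4, and -0.13 to -0.015 without 1 array, nearest to 0 without E12.5 replicate B.

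Of 331 differences of single Hox genes under an alternative, 12 changed sign, and no gene among them was called either way. With array weights Hoxa7 was at -0.016, Hoxa9 at 0.092, Hoxc5 at 0.028, Hoxc6 at -0.0073, Hoxc9 at -0.082 and Hoxc10 at -0.0597. Without 1 array the range was -0.08 to 0.46 for Hoxa7, -1.20 to 0.33 for Hoxc5, -0.0617 to 0.69 for Hoxc9, -0.39 to 1.08 for Hoxc10 and -0.95 to 0.19 for Hoxd8. The changes of sign came without E12.5 replicate B (Hoxa7, Hoxc5 and Hoxd8) or E17.5 replicate C (Hoxa7, Hoxc9 and Hoxc10). The cause was not tested. Signal over background limits the b cluster and the posterior d genes at E17.5.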
